A study of Mus musculus with 36 samples.

Results

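The 7 genes described here encode the adhesion molecules with which blood vessel cells catch leukocytes, namely Icam1, Vcam1, Sele, Selp, Madcam1, Pecam1 and Cdh5. They were chosen by name and found by Ensembl identifier, 7 of 52636 genes listed per library. The rule itself uses no measured value, although the group was picked with earlier results of these data known. Transcripts were counted by RNA-seq in 36 libraries, 3 for each of 12 groups, and none was left out. Intestines of E18.5 embryos made up 30 libraries in a D387A set of 18 and a C362A set of 12, and mouse embryonic fibroblasts (MEFs) made up the other 6. All animals were mice, and no group was treated.

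Caspase-8 is a protease that starts apoptosis and restrains necroptosis, and Casp8 D387A KI mice carry a form that cannot cleave itself at that aspartate, whereas Casp8 C362A KI mice carry a form without its catalytic cysteine. Cflar encodes cFLIP, the partner of caspase-8. Mlkl encodes the executioner of necroptosis, Casp1 the protease of pyroptosis, Ifnar1 a chain of the type I interferon receptor and Fadd the adaptor that brings caspase-8 to death receptors. The D387A set held Mlkl KO controls, Casp8 D387A KI embryos (below, D387A KI), and D387A KI embryos that lacked Cflar and Mlkl (D387A KI Cflar Mlkl KO), those genes plus Casp1 (D387A KI Cflar Mlkl Casp1 KO), or in addition Ifnar1 (D387A KI Cflar Mlkl Casp1 Ifnar1 KO) or Fadd (D387A KI Cflar Mlkl Casp1 Fadd KO). The C362A set held its own Mlkl KO controls, C362A KI Mlkl KO, C362A KI Mlkl Casp1 KO and C362A KI Cflar Mlkl KO embryos. The MEFs were Mlkl KO and D387A KI Cflar Mlkl KO. Every group except D387A KI therefore lacked Mlkl, and D387A KI embryos differed from their controls at both Casp8 and Mlkl. The labels name no promoter or Cre that would limit an allele to vessels. The D387A KI Cflar Mlkl line came from 1 mosaic founder, and the C362A KI Cflar Mlkl KO embryos carried a separately made Cflar deletion. In the D387A set the sample titles give the controls and the D387A KI Cflar Mlkl KO embryos 1 prefix number and each other genotype its own, so genotype and prefix cannot be told apart for those genotypes.

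Leukocytes leave the blood in steps. Endothelial selectins (E-selectin from Sele, P-selectin from Selp) let them roll, the immunoglobulin family members ICAM-1, VCAM-1 and MAdCAM-1 hold them through leukocyte integrins, and PECAM-1 and VE-cadherin (Cdh5) sit at the junctions between endothelial cells through which they pass. Sele, Selp, Icam1 and Vcam1 are classical targets of TNF and IL-1 through NF-kB, MAdCAM-1 marks vessels of the gut and its lymphoid tissue, and Pecam1 and Cdh5 are made by resting endothelium. ICAM-1 and VCAM-1 are also made outside vessels, for example by fibroblasts, and P-selectin also by megakaryocytes and platelets.

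Icam1 lies at chr9:21015985-21028817 on the plus strand, Vcam1 at chr3:116109949-116129688 on the minus strand, Sele at chr1:164048234-164057677 and its neighbour Selp at chr1:164115264-164150026, both on the plus strand, Madcam1 at chr10:79664559-79668537 on the plus strand, Pecam1 at chr11:106654217-106750628 on the minus strand and Cdh5 at chr8:104101625-104144511 on the plus strand (GRCm38, GENCODE M21). Genes annotated on the opposite strand overlap Icam1, Vcam1, Selp and Cdh5, and the most abundant of them, Gm47079 over Icam1, had 114 reads summed over all 36 libraries. RefSeq promoter sequences of the GRCm38.p6 build were at hand for 4 of the 7 members, all on the plus strand. The 250 bases before each transcription start are given 5′ to 3′ because all 4 genes were called higher in D387A KI Cflar Mlkl KO intestines, and capitals mark matches to an NF-kB-like motif.
Sele, chr1:164047984-164048233: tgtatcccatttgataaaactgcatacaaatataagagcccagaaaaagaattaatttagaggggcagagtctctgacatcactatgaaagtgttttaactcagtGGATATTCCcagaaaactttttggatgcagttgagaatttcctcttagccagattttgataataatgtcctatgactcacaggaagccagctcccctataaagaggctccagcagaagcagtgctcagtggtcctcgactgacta
Selp, chr1:164115014-164115263: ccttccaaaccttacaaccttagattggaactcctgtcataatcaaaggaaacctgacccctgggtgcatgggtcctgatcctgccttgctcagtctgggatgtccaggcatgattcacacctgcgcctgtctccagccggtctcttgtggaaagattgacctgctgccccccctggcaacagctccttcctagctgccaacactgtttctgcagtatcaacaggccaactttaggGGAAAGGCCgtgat
Icam1, chr9:21015690-21015939: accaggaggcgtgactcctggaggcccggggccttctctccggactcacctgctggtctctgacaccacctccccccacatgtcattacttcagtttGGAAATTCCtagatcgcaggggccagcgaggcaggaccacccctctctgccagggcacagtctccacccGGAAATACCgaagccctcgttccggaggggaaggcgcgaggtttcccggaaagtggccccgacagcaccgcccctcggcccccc
Madcam1, chr10:79664309-79664558: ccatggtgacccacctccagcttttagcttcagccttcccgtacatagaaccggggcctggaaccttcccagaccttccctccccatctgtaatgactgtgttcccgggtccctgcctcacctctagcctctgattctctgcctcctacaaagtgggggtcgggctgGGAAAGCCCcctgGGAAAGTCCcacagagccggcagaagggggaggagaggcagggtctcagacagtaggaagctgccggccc

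The motif was GGNNNTTCC, searched on both strands in the window from 250 bases before to 50 after the start. It was found in 4 of the 4 member promoters and in 6070 of 32851 RefSeq promoters of the same length. Positions are those of a match's first base, counted from the start. Sele held GGATATTCC at -145. Selp held GGAAAGGCC at -14, which reads as the motif on the opposite strand. The Icam1 promoter held GGAAATTCC at -153, which matches on both strands, and GGAAATACC at -84, on the opposite strand. Madcam1 held GGAAAGCCC at -83 and GGAAAGTCC at -70, both read on the opposite strand. An AP-1 motif (TGACTCA or TGAGTCA) stood in the Sele promoter only, at -73 and clear of the NF-kB-like match, against 5.20% of all promoters. An interferon response motif (GAAA, any 2 bases, GAAA) was in 0 of the 4 windows and in 3.44% of all promoters. A match is a string of letters and not evidence of binding.

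Between 17943524 and 32307629 reads per library fell on genes. Casp1 and Fadd levels matched the labels, with 0 to 0.142 RPKM (reads per kilobase of exon and per scaled library size) of Casp1 in the 12 deficient intestines against 28.4 to 83.0 in the other 18, and 0.169 to 0.259 RPKM of Fadd in the 3 deficient intestines against 6.53 to 12.9. Ifnar1 was at 8.50 to 9.70 RPKM in its deficient group against 19.5 to 26.4, while the totals of Cflar and Mlkl overlapped between deficient and other intestines and give no check. Replicate 3 of D387A KI Cflar Mlkl Casp1 KO stood apart from replicates 1 and 2 for Icam1 and for the summed RPKM of several marker lists described below. The NF-kB list stood at 427 in it against 205 in each of the others, TNF, lymphotoxin and IL-1 ligands at 29.8 against 11.2 and 11.3, lymphatic markers at 22.3 against 9.46 and 9.997, and leukocyte, macrophage and monocyte markers at 303 against 181 and 175. Values that moved when it was left out are given both ways, and for the lists this was chosen after seeing the data. The intestines held epithelial transcripts (a summed 20870 to 23329 RPKM over 9 markers in the D387A-set controls) and the MEFs held 1.48 to 7.17 RPKM of the same markers beside 3845 to 4360 RPKM of 6 fibroblast markers.

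In the Mlkl KO controls of the D387A set, Pecam1 and Cdh5 were the most abundant of the 7 genes per length, at 25.2 ± 1.47 and 21.8 ± 1.45 RPKM (SD, n = 3). Madcam1 followed at 11.1 ± 0.318, Icam1 at 6.46 ± 0.557 and Vcam1 at 2.96 ± 0.236 RPKM. The selectins were near the limit of detection, Selp at 6, 7 and 6 reads (0.0941 ± 0.0112 RPKM) and Sele at 0, 0 and 3 reads per library. Mlkl KO controls of the C362A set had the same order of genes, from Pecam1 at 24.4 ± 4.1 to Sele at 0.0134 ± 0.0127 RPKM. In D387A KI Cflar Mlkl KO, C362A KI Mlkl KO, C362A KI Mlkl Casp1 KO and D387A KI Cflar Mlkl Casp1 Ifnar1 KO intestines Icam1 had the highest mean of the 7, and in D387A KI Cflar Mlkl Casp1 KO intestines Madcam1 did. MEFs had another order, with Vcam1 first at 38.8 ± 6.07 and Icam1 next at 13.5 ± 1.68 RPKM in controls. There Pecam1 had 10 to 20 reads and Cdh5 11 to 33 reads per control library, and Madcam1 had no read.

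**Figure D1:**
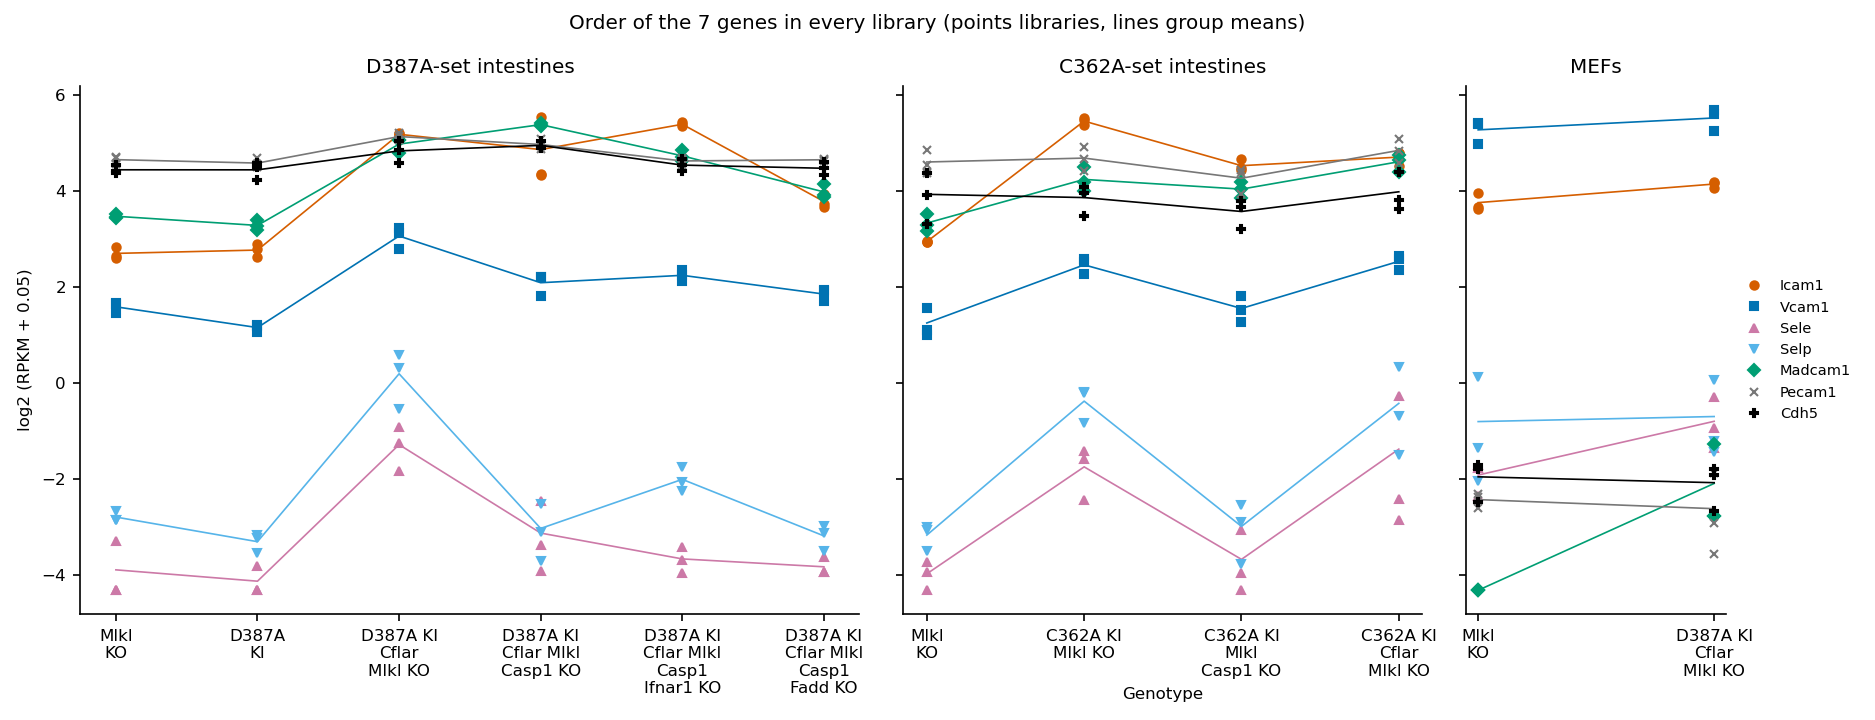
Levels of the 7 genes in all 36 libraries as log2 of RPKM plus 0.05 (y axis), by genotype (x axis) in D387A-set intestines, C362A-set intestines and MEFs, with a point for each library and lines joining group means. Vcam1, Sele and Selp stand highest of the D387A set in D387A KI Cflar Mlkl KO, and in MEFs Vcam1 and Icam1 lie above the other 5 genes. Sets were normalized separately, so points are comparable between genes and within a set.

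Casp8 D387A KI alone differed little from the controls at these genes. Icam1 was at 7.37, 6.13 and 6.86 RPKM in D387A KI embryos and at 7.1, 6.07 and 6.21 RPKM in Mlkl KO controls, so the groups overlapped. Vcam1 was at 2.22, 2.28 and 2.03 RPKM against 3.07, 2.69 and 3.12, which did not overlap, but its log2 difference of -0.44 ± 0.135 (SE) had an adjusted p of 0.96 (edgeR quasi-likelihood test, Benjamini-Hochberg over all genes). Calls here and below, joint fits aside, required a log2 fold change beyond 1 in either direction and an adjusted p under 0.05. Madcam1, at 9.6, 9.04 and 10.48 RPKM against 10.85 to 11.45, and Selp, with 2, 5 and 5 reads against 6 or 7, also lay below every control, at -0.19 and -0.82 (adjusted p = 0.966 for both). Icam1 was at 0.07, Sele at -1.44, Pecam1 at -0.07 and Cdh5 at 0.00 on the log2 scale. With that rule 0 of 7 members were called by edgeR, DESeq2 and limma-voom, 1 of 7 (Vcam1) had an unadjusted p under 0.05, and 0.00545% of the 18360 genes tested were called.

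In D387A KI Cflar Mlkl KO intestines 5 of the 7 genes were called higher than in Mlkl KO controls, 3 of which (Icam1, Vcam1 and Madcam1) passed the low-count filter in every group. Both selectins, Icam1, Vcam1 and Madcam1 rose, against 22.2% of all genes called in either direction, while Pecam1 and Cdh5 stayed below the fold threshold. Icam1, the ligand of the beta-2 integrins LFA-1 and Mac-1, was at 36.86, 36.68 and 35.62 RPKM, all far above the highest control at 7.1 RPKM. Its log2 fold change was 2.49 ± 0.231 (SE, adjusted p = 7.12e-08, edgeR). Vcam1, which binds the integrin VLA-4, was at 9.38, 6.84 and 8.75 RPKM against at most 3.12 in controls. Its change was 1.49 ± 0.131 (adjusted p = 3.6e-08). Madcam1, the ligand of the gut-homing integrin alpha-4 beta-7, was at 33.41, 27.67 and 33.59 RPKM against 10.85, 11.45 and 10.97. The groups of Madcam1 lay far apart, with a log2 change of 1.51 ± 0.0943 (adjusted p = 5.48e-10).

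The selectins changed most in fold and least in transcripts. Selp had 115, 49 and 103 reads (1.44, 0.64 and 1.2 RPKM) in D387A KI Cflar Mlkl KO against 6, 7 and 6 in controls, a log2 change of 3.52 ± 0.376 (adjusted p = 3.86e-07, edgeR). Sele had 25, 15 and 35 reads (0.37, 0.23 and 0.48 RPKM) against 0, 0 and 3, and the groups did not overlap. Summed over the groups, 75 Sele reads against 3 gave a ratio of 20.9 after scaling for depth, with a 95% exact interval of 6.87 to 103.4 that covers counting error only. The fitted log2 change was 4.23 ± 0.737 (adjusted p = 9.04e-05), which for so few control reads depends on the prior count. In this set Sele passed the low-count filter only through D387A KI Cflar Mlkl KO, where it was high, and Selp only through that group and D387A KI Cflar Mlkl Casp1 Ifnar1 KO, so the 2 calls are no independent support for a change of the 7 genes as a group. Without the filter the values were 4.24 for Sele (adjusted p = 6.39e-06) and 3.54 for Selp (adjusted p = 1.67e-10).

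The junction genes Pecam1 and Cdh5 moved little. Pecam1 was at 35.29, 33.36 and 36.95 RPKM against 25.76, 26.3 and 23.53, higher in every embryo but by only 0.48 ± 0.0766 on the log2 scale (adjusted p = 3.49e-05, edgeR). Cdh5 was at 28.94, 23.89 and 32.98 RPKM against 21.24, 23.39 and 20.63, a log2 difference of 0.40 ± 0.115 (adjusted p = 0.00677). The median log2 change over the 7 genes was 1.51, and over all genes tested it was -0.01. In RNA of whole intestine, more cells of a type and more RNA per cell cannot be told apart.

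**Figure D2:**
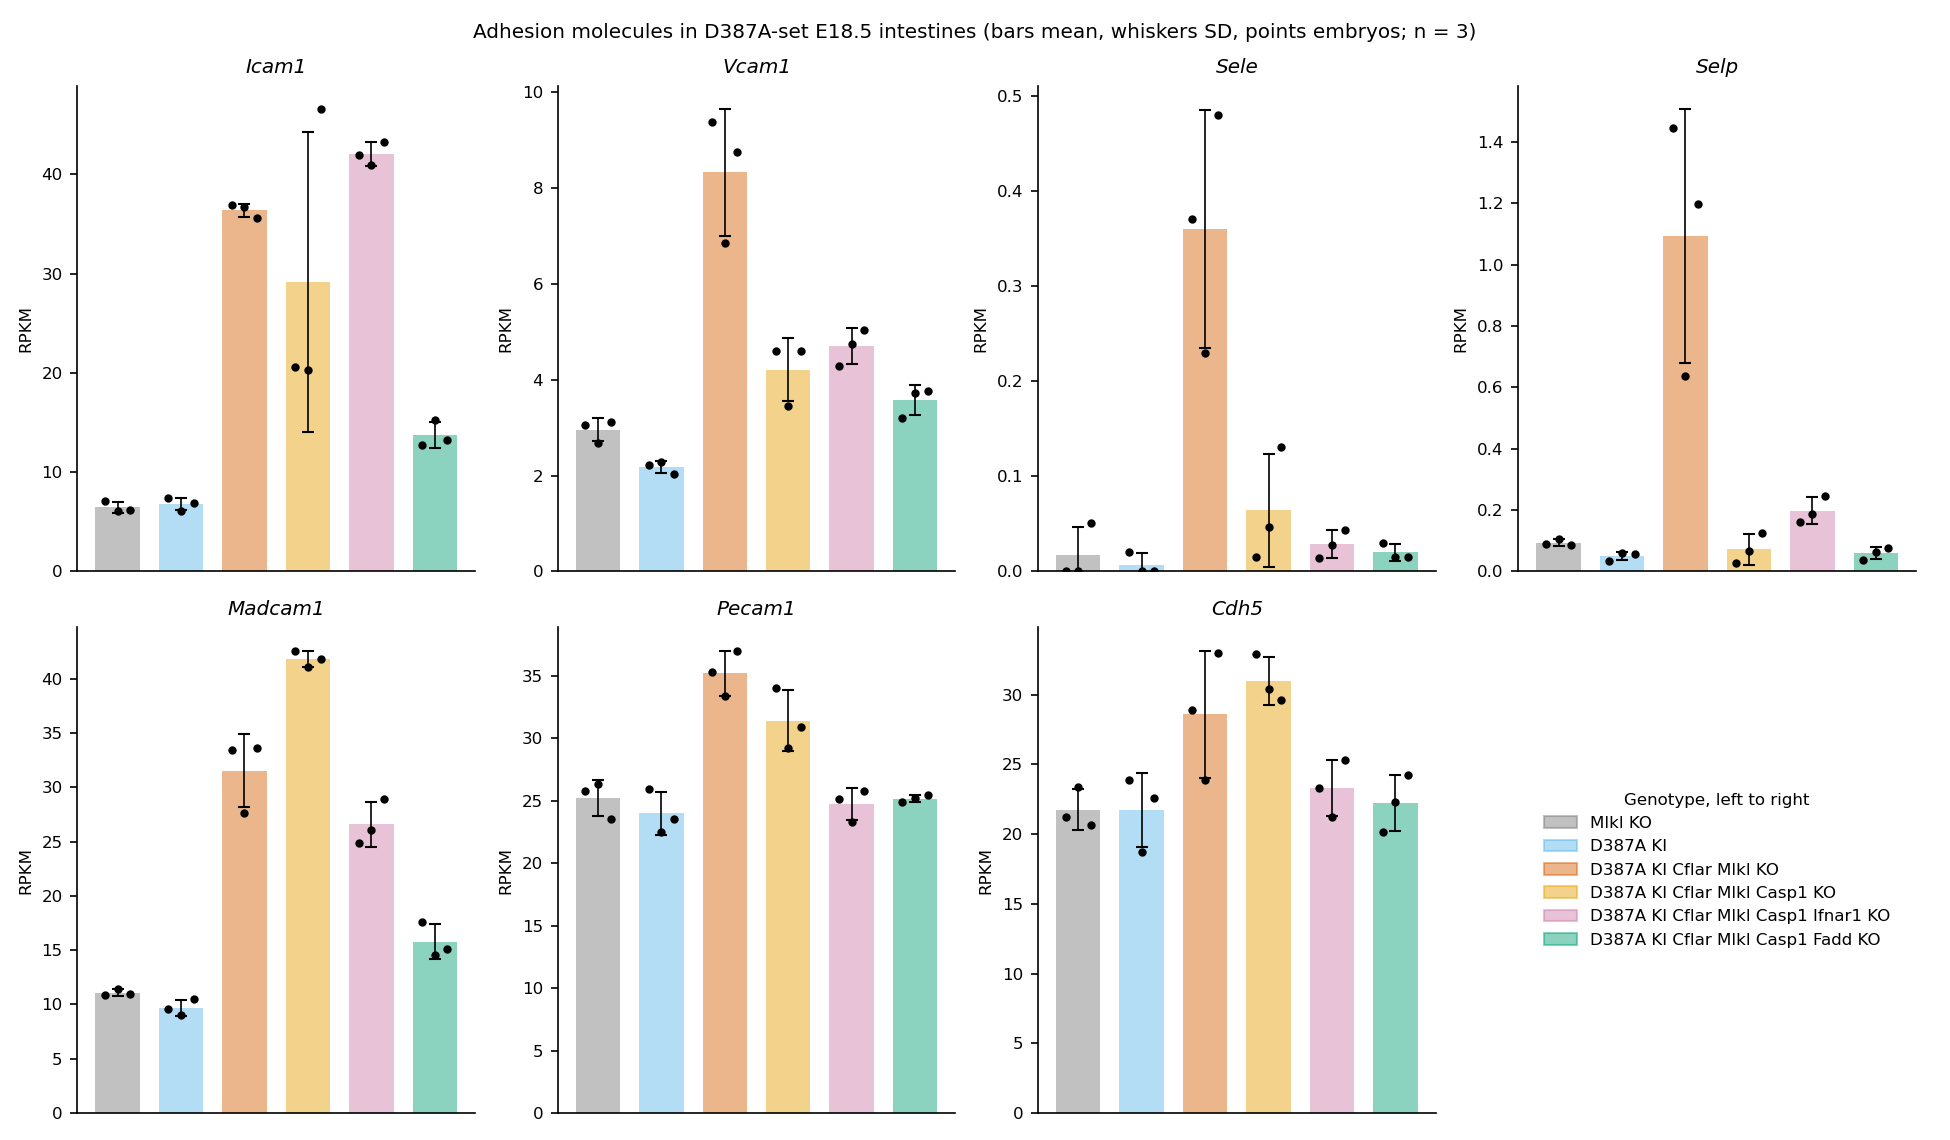
Levels in RPKM (y axes) of the 7 genes in the 6 genotypes of the D387A set, with bars for the mean of 3 embryos, whiskers for the SD (lower ends at 0 where they would pass it) and points for embryos. Vcam1, Sele and Selp stand alone in D387A KI Cflar Mlkl KO, and Madcam1 is highest in D387A KI Cflar Mlkl Casp1 KO. Icam1 stays above the controls without Casp1, at 20.61, 20.3 and 46.56 RPKM, and without both Casp1 and Ifnar1.

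Other markers of blood vessel endothelium did not follow the 5 called genes as a group. Among 22 general endothelial markers 1 rose and 0 fell in D387A KI Cflar Mlkl KO intestines, with a median log2 change of 0.17. The marker that rose was Ecscr, an endothelial surface protein, by 2.03 ± 0.141 (adjusted p = 1.96e-09, edgeR), and the most abundant in controls, Plvap of the endothelial diaphragms, had the smallest value at -0.48 ± 0.131. Their summed level was 303 to 378 RPKM against 264 to 293 in controls. Of 4 lymphatic endothelial markers tested 0 were called, from Lyve1 at 0.50 to Reln at -0.84. Of 12 other adhesion and transmigration genes 1 was called, Cd47 at 1.54 ± 0.272, while Nectin2, the most abundant, was at 0.77 and Cd99l2 at -0.67. Among 5 pericyte markers Kcnj8 was called at 1.03, and 0 of 6 fibroblast and 0 of 6 smooth muscle markers were called. Their summed levels were nonetheless above every control in every mutant, at 93.2 to 107 against 58.6 to 68.7 RPKM for pericyte, 970.0 to 1025 against 732 to 815 for fibroblast and 3719 to 4689 against 2648 to 2861 for smooth muscle markers, and their part in the levels of Icam1 and Vcam1 was not tested.

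Leukocyte partners of the 7 molecules changed in part. Of 15 leukocyte ligands and integrins 8 rose and 1 fell, with a median log2 change of 1.04. Itgae, an integrin chain of intraepithelial lymphocytes, had the smallest value at -1.60 ± 0.393 (adjusted p = 0.00202, edgeR). The chains of the ICAM-1 receptors rose, Itgb2 by 2.28, Itgam by 2.11 and Itgal by 1.04. By contrast the chains of the VCAM-1 and MAdCAM-1 receptors were not called, with Itga4 at 0.08, Itgb7 at 0.45 and Itgb1, the most abundant gene of the list, at 0.59. Of the genes for selectin ligands, Selplg, which encodes PSGL-1, rose by 1.16 and Cd44 by 2.17, and Glg1 was at 0.22. These integrin and ligand genes were named for their pairing with the 7 molecules.

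In the same comparison, in which 22.2% of all genes were called, genes of the TNF, IL-1 and NF-kB pathway were called in part. Of 13 NF-kB factors and feedback genes 9 rose and 0 fell, with a median log2 change of 1.79, the largest being Nfkbia, which encodes the inhibitor of NF-kB, at 2.73 ± 0.254 (adjusted p = 7.15e-08, edgeR). The smallest and most abundant was Rela at 0.52 ± 0.0718. Of 4 TNF, lymphotoxin and IL-1 ligand genes tested 2 rose, Il1b by 5.73 ± 0.369 and Tnf by 5.62, and Il1a was at -0.95 (adjusted p = 0.0517). Of 5 receptor genes 2 rose, Tnfrsf1b by 2.39 and Il1r1 by 1.42, and Ltbr, the lymphotoxin beta receptor, was at -0.42. Of 4 lymphoid tissue organizer genes 0 were called, from Cxcl13 at 0.31 to Nkx2-3, a regulator of Madcam1, at -0.36. The part of these genes in the levels of the 7 molecules was not tested.

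Markers of other cells that could carry these transcripts also moved. Platelet and megakaryocyte markers summed to 19.4 to 23.5 RPKM against 14.1 to 14.6 in controls, with 2 of 5 called higher (Ppbp at 3.16 and Gp1bb at 1.08) and Gp9 lower at -1.99, and Pf4, the most abundant, at 0.64. Neutrophil markers summed to 66.4 to 242 RPKM against 6.3 to 36.1, with 6 of 9 higher, Ly6g by 4.20 and S100a9 by 3.10, and Mpo lower at -2.03. In the list of leukocyte, macrophage and monocyte markers 3 of 10 were higher and 1 lower, from Cd14 at 3.03 to Csf1r at -1.83. Of 5 lymphoid markers tested 2 were lower, among them Il7r at -1.42, and Nkg7 was at 0.67. Epithelial markers summed to 1746 to 2460 RPKM against 20870 to 23329, with Apoa4 at -4.50, Fabp2 at -5.87 and Krt8 at 1.08. The part of these shifts in the levels of the 7 genes was not tested.

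With Casp1 lost the 7 genes parted. In D387A KI Cflar Mlkl Casp1 KO intestines the selectins fell to read counts that overlapped the controls, Vcam1 lay between controls and D387A KI Cflar Mlkl KO, and Icam1 and Madcam1 stayed above the controls. Selp had 2, 5 and 9 reads (0.03, 0.07 and 0.12 RPKM), all below the 49 to 115 reads with Casp1 present and overlapping the 6 or 7 reads of controls. Its log2 change with Casp1 loss was -3.90 ± 0.386 (adjusted p = 4.03e-07, edgeR). Sele had 1, 3 and 8 reads, a log2 change of -2.48 ± 0.568 (adjusted p = 0.00173), and against controls 12 reads to 3 gave a ratio of 3.61 with an exact interval of 0.974 to 19.9. Replicate 3 held 8 of the 12 reads, and the fitted change against controls was 1.75 with it and 0.76 (adjusted p = 0.704) without it. These 2 of 7 members were called for Casp1 loss, where 13.4% of all genes were. Both had passed the low-count filter through the group with Casp1, in which they were high, so nothing is read from their count against that share, and with a mean count of at least 50 per library required, neither was tested and 0 members were called. Without replicate 3 the changes were -4.52 for Selp and -3.47 for Sele. Pecam1 at -0.17 (adjusted p = 0.0841) and Cdh5 at 0.11 (adjusted p = 0.435) were not called.

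Vcam1 was at 4.59, 3.45 and 4.6 RPKM without Casp1, below the 6.84 to 9.38 RPKM with it and above the 2.69 to 3.12 RPKM of controls. The log2 change of -0.98 ± 0.128 (adjusted p = 8.33e-06, edgeR) lay just under the fold threshold. It passed at -1.05 without replicate 3 and also without replicate 1. It passed too without replicate 2 of D387A KI Cflar Mlkl KO (-1.11) and without the low-count filter (-1.002). Icam1 was at 20.61, 20.3 and 46.56 RPKM, so that replicates 1 and 2 lay below and replicate 3 above the 35.62 to 36.86 RPKM with Casp1 present. Its change was -0.32 ± 0.213 (adjusted p = 0.231) with all embryos and -0.83 (adjusted p = 4.68e-07) without replicate 3. In that embryo the general endothelial list summed to 316 RPKM against 271 and 285 in the other two. Madcam1 was at 42.61, 41.1 and 41.8 RPKM, above all embryos of D387A KI Cflar Mlkl KO, by a log2 difference of 0.41 ± 0.0891 (adjusted p = 0.00122).

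Measured against the Mlkl KO controls, 2 of 7 members were called in D387A KI Cflar Mlkl Casp1 KO, where 4.34% of all genes were. They were Icam1 at a log2 change of 2.17 ± 0.23 (adjusted p = 1.28e-05, edgeR; 1.66 without replicate 3) and Madcam1 at 1.92 ± 0.0947 (adjusted p = 2.31e-09). Vcam1 was at 0.51 (adjusted p = 0.0112), Cdh5 at 0.51 (adjusted p = 0.00478), Pecam1 at 0.32 (adjusted p = 0.00752) and Selp at -0.39 (adjusted p = 0.65), or at -1.005 (adjusted p = 0.276) without replicate 3. The comparisons with controls in this set share the same 3 control embryos. Casp1 loss itself called 13.4% of all genes. With Casp1 loss, 0 of 9 neutrophil markers rose and 5 fell, with Ly6g at -3.38, and 6 of 15 leukocyte ligand genes fell, among them Cd44 at -1.67 and Selplg at -1.29. Of the 13 NF-kB genes 2 fell, Traf1 at -1.07 and Rel at -1.02, while Il1b was at -3.40 and Il1a at 2.29. Without replicate 3, 2947 of 18690 genes were called, and 7 of 13 NF-kB genes fell. Among these were Traf1 at -1.22, Rel at -1.23, Relb at -1.36 and Nfkbia at -1.22. Il1b was then at -3.83 and Il1a at 1.496, and 7 of 15 leukocyte ligand genes and 5 of 9 neutrophil markers fell. Of 22 endothelial markers 2 fell, Ecscr at -1.37 and Vwf, whose product is stored with P-selectin in endothelial granules, at -1.19 (-1.58 and -1.88 without replicate 3). Epithelial markers summed to 10558 to 14718 RPKM, with Fabp2 at 4.65, and the part of these shifts was not tested.

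With Ifnar1 lost in addition, Selp was the member called. In D387A KI Cflar Mlkl Casp1 Ifnar1 KO intestines Selp had 13, 16 and 20 reads (0.16, 0.19 and 0.25 RPKM), each above the 2 to 9 reads without Casp1 alone. The log2 change of 1.45 ± 0.449 (adjusted p = 0.0221, edgeR) was 1 call of 7 members, where 5.31% of all genes were called. Here too Selp had passed the filter through groups where it was high, this one among them, and nothing is read from the count. That call was lost without D387A KI Cflar Mlkl Casp1 KO replicate 1 (1.06, adjusted p = 0.112) or replicate 2 (1.39, adjusted p = 0.0787), without replicate 3 of the Ifnar1-deficient group (1.27, adjusted p = 0.0846), and in a fit of the compared groups alone (adjusted p = 0.0854). Without replicate 3 of D387A KI Cflar Mlkl Casp1 KO the call stayed, at 2.07 (adjusted p = 0.00445). Icam1 was at 41.93, 40.95 and 43.27 RPKM, above the D387A KI Cflar Mlkl KO embryos, and differed from D387A KI Cflar Mlkl Casp1 KO by 0.53 ± 0.213 (adjusted p = 0.0683), or by 1.04 (adjusted p = 1.07e-07) without replicate 3 of the latter. Madcam1 was lower, at 24.86, 26.11 and 28.92 RPKM against 41.1 to 42.61, by a log2 difference of -0.65 ± 0.0895 (adjusted p = 0.00025). Pecam1 at -0.34 (adjusted p = 0.00364) and Cdh5 at -0.41 (adjusted p = 0.0129) also lay below the fold threshold, as did the 22 endothelial markers, of which 0 were called, from Ecscr at 0.68 to Robo4 at -0.62, and 1, Vwf at 1.02, without that replicate. Vcam1 was at 0.16 (adjusted p = 0.378) and Sele at -1.09 (adjusted p = 0.352), or at -0.11 (adjusted p = 0.948) without replicate 3 of D387A KI Cflar Mlkl Casp1 KO.

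Against the Mlkl KO controls, 2 of 7 members were called in D387A KI Cflar Mlkl Casp1 Ifnar1 KO, where 12.4% of all genes were. Icam1 rose by 2.70 ± 0.233 (adjusted p = 2.6e-07, edgeR) and Madcam1 by 1.26 ± 0.0942 (adjusted p = 8e-08). Vcam1, at 4.29, 4.75 and 5.04 RPKM, was above every control by 0.67 (adjusted p = 0.000517). Selp was at 1.07 ± 0.437 (adjusted p = 0.0531) and Sele, with 1, 2 and 3 reads, gave a ratio of 1.64 with an exact interval of 0.35 to 10.1. Pecam1 was at -0.03 and Cdh5 at 0.10. Against the same controls 9 of 13 NF-kB genes were higher, and the list summed to 429 to 444 RPKM against 109 to 122. TNF, lymphotoxin and IL-1 ligands summed to 28.3 to 37.2 RPKM against 6.64 to 7.64, and leukocyte, macrophage and monocyte markers to 251 to 283 against 158 to 178. Of 9 neutrophil markers 4 were higher and 2 lower, with sums of 28.5 to 48.1 RPKM against 6.3 to 36.1, and epithelial markers summed to 11765 to 17699 RPKM against 20870 to 23329. Compared with D387A KI Cflar Mlkl Casp1 KO, 5.31% of all genes were called and 1 of 13 NF-kB genes rose, Relb by 1.08. Lyve1, a marker of lymphatic vessels, rose by 1.80. Without replicate 3 of D387A KI Cflar Mlkl Casp1 KO, 1740 of 18690 genes were called. In that fit 8 of 13 NF-kB genes rose, with Relb at 1.75, and Lyve1 rose by 2.66. The part of these shifts was not tested.

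Icam1 and Madcam1 were lower in the group that also lacked Fadd, whose titles carry another prefix than those of the group with Fadd, so genotype and prefix cannot be told apart. Icam1 was at 12.71, 15.26 and 13.25 RPKM in D387A KI Cflar Mlkl Casp1 Fadd KO intestines, under all 3 embryos with Fadd at 20.3 to 46.56 RPKM and above all controls. Madcam1 was at 17.63, 14.58 and 15.14 RPKM against 41.1 to 42.61 with Fadd. The log2 changes were -1.08 ± 0.218 for Icam1 (adjusted p = 0.00256, edgeR) and -1.41 ± 0.0919 for Madcam1 (adjusted p = 2.08e-07), and these 2 of 7 members were called against 3.44% of all genes. The Icam1 call rested on replicate 3 of the group with Fadd, since without it the change was -0.57 (adjusted p = 0.000111), and it was also lost with limma-voom (-0.97) and in a fit of the compared groups alone (adjusted p = 0.0816). Sele had 2, 1 and 1 reads (-1.56, adjusted p = 0.265) and Selp 3, 5 and 6 reads (-0.25, adjusted p = 0.798). Without that replicate Sele was at -0.58 (adjusted p = 0.752) and Selp changed sign, at 0.37 (adjusted p = 0.727). Vcam1 was at -0.24 (adjusted p = 0.221). Per length Selp, at 0.0386, 0.064 and 0.0766 RPKM, lay below the lowest control at 0.0873. Pecam1 at -0.32 and Cdh5 at -0.48 had adjusted p of 0.00835 and 0.00841.

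Against the Mlkl KO controls, 1 of 7 members was called in D387A KI Cflar Mlkl Casp1 Fadd KO, where 3.78% of all genes were. This was Icam1 at 1.09 ± 0.228 (adjusted p = 0.00301, edgeR), which became 0.98 when the controls of both intestine sets were pooled. Madcam1 was at 0.51 ± 0.0949 (adjusted p = 0.00121) and Vcam1, at 3.21, 3.73 and 3.76 RPKM, at 0.27 (adjusted p = 0.174). Selp was at -0.64 (adjusted p = 0.459), Pecam1 at 0.00 and Cdh5 at 0.03, and 4 Sele reads against 3 gave a ratio of 1.15 with an exact interval of 0.195 to 7.87. Compared with D387A KI Cflar Mlkl Casp1 KO, 3.44% of all genes were called and 1 of 13 NF-kB genes fell, Nfkbia at -1.18 (adjusted p = 0.00277). Tnf was at -1.63. Without replicate 3 of D387A KI Cflar Mlkl Casp1 KO, 907 of 18690 genes were called. In that fit 0 of 13 NF-kB genes were called, with Nfkbia at -0.61 (adjusted p = 0.000161) and Tnf at -0.26 (adjusted p = 0.631). With all embryos and without that one, 0 of 22 endothelial markers were called, from Ptprb at 0.39 to Nos3 at -0.61. Epithelial markers summed to 20682 to 23288 RPKM, and the part of these shifts was not tested.

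**Figure D3:**
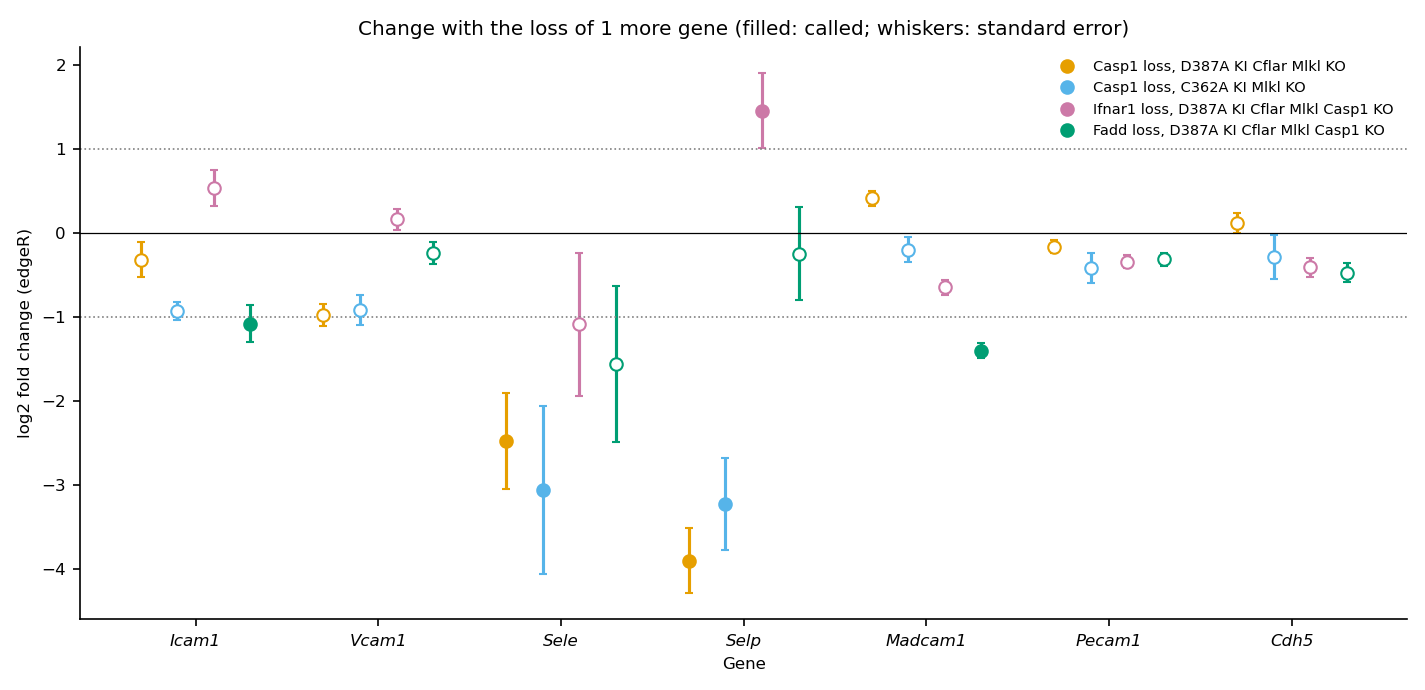
Fitted log2 fold change (y axis) of each of the 7 genes (x axis) with the loss of Casp1 in 2 backgrounds and with the added loss of Ifnar1 or Fadd, with whiskers for the standard error, filled points for called changes and dotted lines at the fold threshold of 1 and -1. Selp and Sele lie lowest with Casp1 loss in both backgrounds. Icam1 and Madcam1 are called lower in the group without Fadd, which also differs in title prefix, and the Icam1 call rested on 1 embryo. Sele lies lowest there but is not called.

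The C362A set asked about caspase-8 without catalytic activity. In C362A KI Mlkl KO intestines 4 of 7 members were called, all higher, against 18% of all genes (3487 of 19408), and Madcam1 fell short of the fold threshold. Icam1 was at 44.77, 41.45 and 45.87 RPKM against 7.76, 7.59 and 7.63 in the controls of this set. Its log2 change was 2.52 ± 0.11 (adjusted p = 8.23e-10, edgeR). Vcam1 was at 5.68, 4.75 and 5.97 RPKM against 2.92, 2.11 and 1.96, a change of 1.23 ± 0.177 (adjusted p = 6.22e-05). Both groups were clear of their controls.

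Selp had 79, 49 and 78 reads in C362A KI Mlkl KO against 7, 7 and 3 in controls, a log2 change of 3.50 ± 0.558 (adjusted p = 0.000152, edgeR). Sele had 23, 11 and 26 reads against 2, 0 and 1, and the ratio of the sums was 19.0 with an exact interval of 6.19 to 94.7. The fitted Sele change was 4.08 ± 1.13 (adjusted p = 0.00908). In this set too the selectins passed the low-count filter only through groups where they were high, C362A KI Mlkl KO and C362A KI Cflar Mlkl KO. Their calls are therefore no independent support for a change of the 7 genes as a group. Without the filter the changes were 4.07 for Sele (adjusted p = 0.000163) and 3.49 for Selp (adjusted p = 2.15e-08). Madcam1 was at 22.54, 15.97 and 18.27 RPKM against 11.43, 9.78 and 8.92, higher in every embryo by 0.91 ± 0.154 (adjusted p = 0.000254), and it passed the fold threshold, at 1.02, without replicate 2 of the mutants. Pecam1 at 0.08 and Cdh5 at -0.07 had adjusted p of 0.743 and 0.857, in groups that overlapped widely.

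Several of the lists rose beside the members. In C362A KI Mlkl KO intestines 10 of 13 NF-kB genes rose, Bcl3 the most by 2.36, 11 of 14 leukocyte ligand genes rose, among them Selplg by 2.63 and Cd44 by 2.53, and 6 of 9 neutrophil markers rose, Cxcr2 the most by 5.95. Neutrophil markers summed to 564 to 700 RPKM against 17.6 to 51.9 in controls, and general endothelial markers to 268 to 325 against 233 to 270, with 1 of 22 called (Ecscr at 1.75). Epithelial markers summed to 8859 to 10887 RPKM against 17396 to 28339. How far these shifts bear on the members was not tested.

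In this background too the selectins were lower without Casp1. C362A KI Mlkl Casp1 KO intestines had 2, 10 and 7 Selp reads and 0, 1 and 5 Sele reads, with log2 changes of -3.23 ± 0.549 (adjusted p = 0.000493, edgeR) and -3.07 ± 1 (adjusted p = 0.0292). These 2 of 7 members were called, where 11.3% of all genes were. As both had passed the low-count filter through groups where they were high, nothing is read from their count, and with a mean count of at least 50 required, 0 members were called. The Sele call was lost without replicate 1 or 3 of C362A KI Mlkl KO (adjusted p = 0.0695 and 0.0816) and without replicate 1 or 2 of C362A KI Mlkl Casp1 KO (adjusted p = 0.0975 and 0.0962). Icam1 was at 21.56, 25.5 and 22.22 RPKM, below every embryo with Casp1, at -0.93 ± 0.104 (adjusted p = 1.43e-05), and Vcam1 at 2.36, 3.47 and 2.83 RPKM, at -0.92 ± 0.175 (adjusted p = 0.00117). Both lay just inside the fold threshold and passed it without replicate 2 of C362A KI Mlkl Casp1 KO, Icam1 at -1.02 and Vcam1 at -1.09. Madcam1 was at 14.52, 18.28 and 16.51 RPKM and overlapped the group with Casp1 (-0.20, adjusted p = 0.326), and Pecam1 was at -0.42 (adjusted p = 0.0809) and Cdh5 at -0.29 (adjusted p = 0.417). Of 9 neutrophil markers 7 fell, Cxcr2 at -5.33 and S100a9 at -4.55. Likewise 10 of 14 leukocyte ligand genes fell, among them Selplg at -2.48 and Cd44 at -2.06, as did 5 of 10 leukocyte, macrophage and monocyte markers, 4 of 6 TNF, lymphotoxin and IL-1 ligand genes, with Il1b at -4.60, and 2 of 13 NF-kB genes. Epithelial markers summed to 25866 to 32590 RPKM against 8859 to 10887 with Casp1, and general endothelial markers to 195 to 265 against 268 to 325, with 0 of 22 called. The part of these shifts was not tested.

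Against its controls, 1 of 7 members was called in C362A KI Mlkl Casp1 KO, where 10.5% of all genes were, namely Icam1 at 1.59 ± 0.108 (adjusted p = 7.2e-08, edgeR). Madcam1 was higher in every embryo by 0.71 ± 0.155 (adjusted p = 0.00299). Vcam1 was at 0.31, Selp at 0.28, Pecam1 at -0.34 and Cdh5 at -0.36, with adjusted p from 0.148 to 0.794, and 6 Sele reads against 3 gave a ratio of 2.16 with an exact interval of 0.461 to 13.3. In C362A KI Cflar Mlkl KO, 5 of 7 were called higher, against 24.6% of all genes. The selectins among them passed the low-count filter only through this group and C362A KI Mlkl KO, where they were high. With a mean count of at least 50 required, 3 members were called, against 3357 of 14777 genes. Icam1, at 27.64, 22.92 and 27.88 RPKM, rose by 1.77 ± 0.108 (adjusted p = 1.34e-08) and Vcam1, at 5.08, 5.94 and 6.25 RPKM, by 1.30 ± 0.177 (adjusted p = 2.61e-05). Madcam1 was at 20.99, 25.2 and 27.14 RPKM, a rise of 1.28 ± 0.155 (adjusted p = 8.55e-06). Pecam1 was at 0.24 (adjusted p = 0.263) and Cdh5 at 0.05 (adjusted p = 0.881). In these embryos epithelial markers summed to 2312 to 4773 RPKM against 17396 to 28339 in controls and neutrophil markers to 289 to 491 against 17.6 to 51.9, and 7 of 10 leukocyte, macrophage and monocyte markers were higher and 1 lower. The part of these shifts was not tested.

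The selectins of C362A KI Cflar Mlkl KO varied between embryos. Selp had 103, 28 and 54 reads, a rise of 3.45 ± 0.56 (adjusted p = 0.000131, edgeR), and Sele 56, 7 and 11 reads, a rise of 4.50 ± 1.09 (adjusted p = 0.00316). Replicate 1 was the high embryo for both selectins, and for Sele it held 56 of the 74 reads. The ratio of Sele sums to controls was 24.7 with an exact interval of 8.12 to 122.4, which covers counting error only. Over the alternatives the fitted Sele change ran from 2.97 to 5.33. Compared with C362A KI Mlkl KO, the loss of Cflar called 0 of 7 members by edgeR, DESeq2 and limma-voom, with 2 at an unadjusted p under 0.05, where 6.06% of all genes were called. Icam1 was lower in every embryo, at -0.75 ± 0.104 (adjusted p = 0.000358). Madcam1 was at 0.37 and Sele at 0.41, and Vcam1, Selp, Pecam1 and Cdh5 lay between -0.06 and 0.16.

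**Figure D4:**
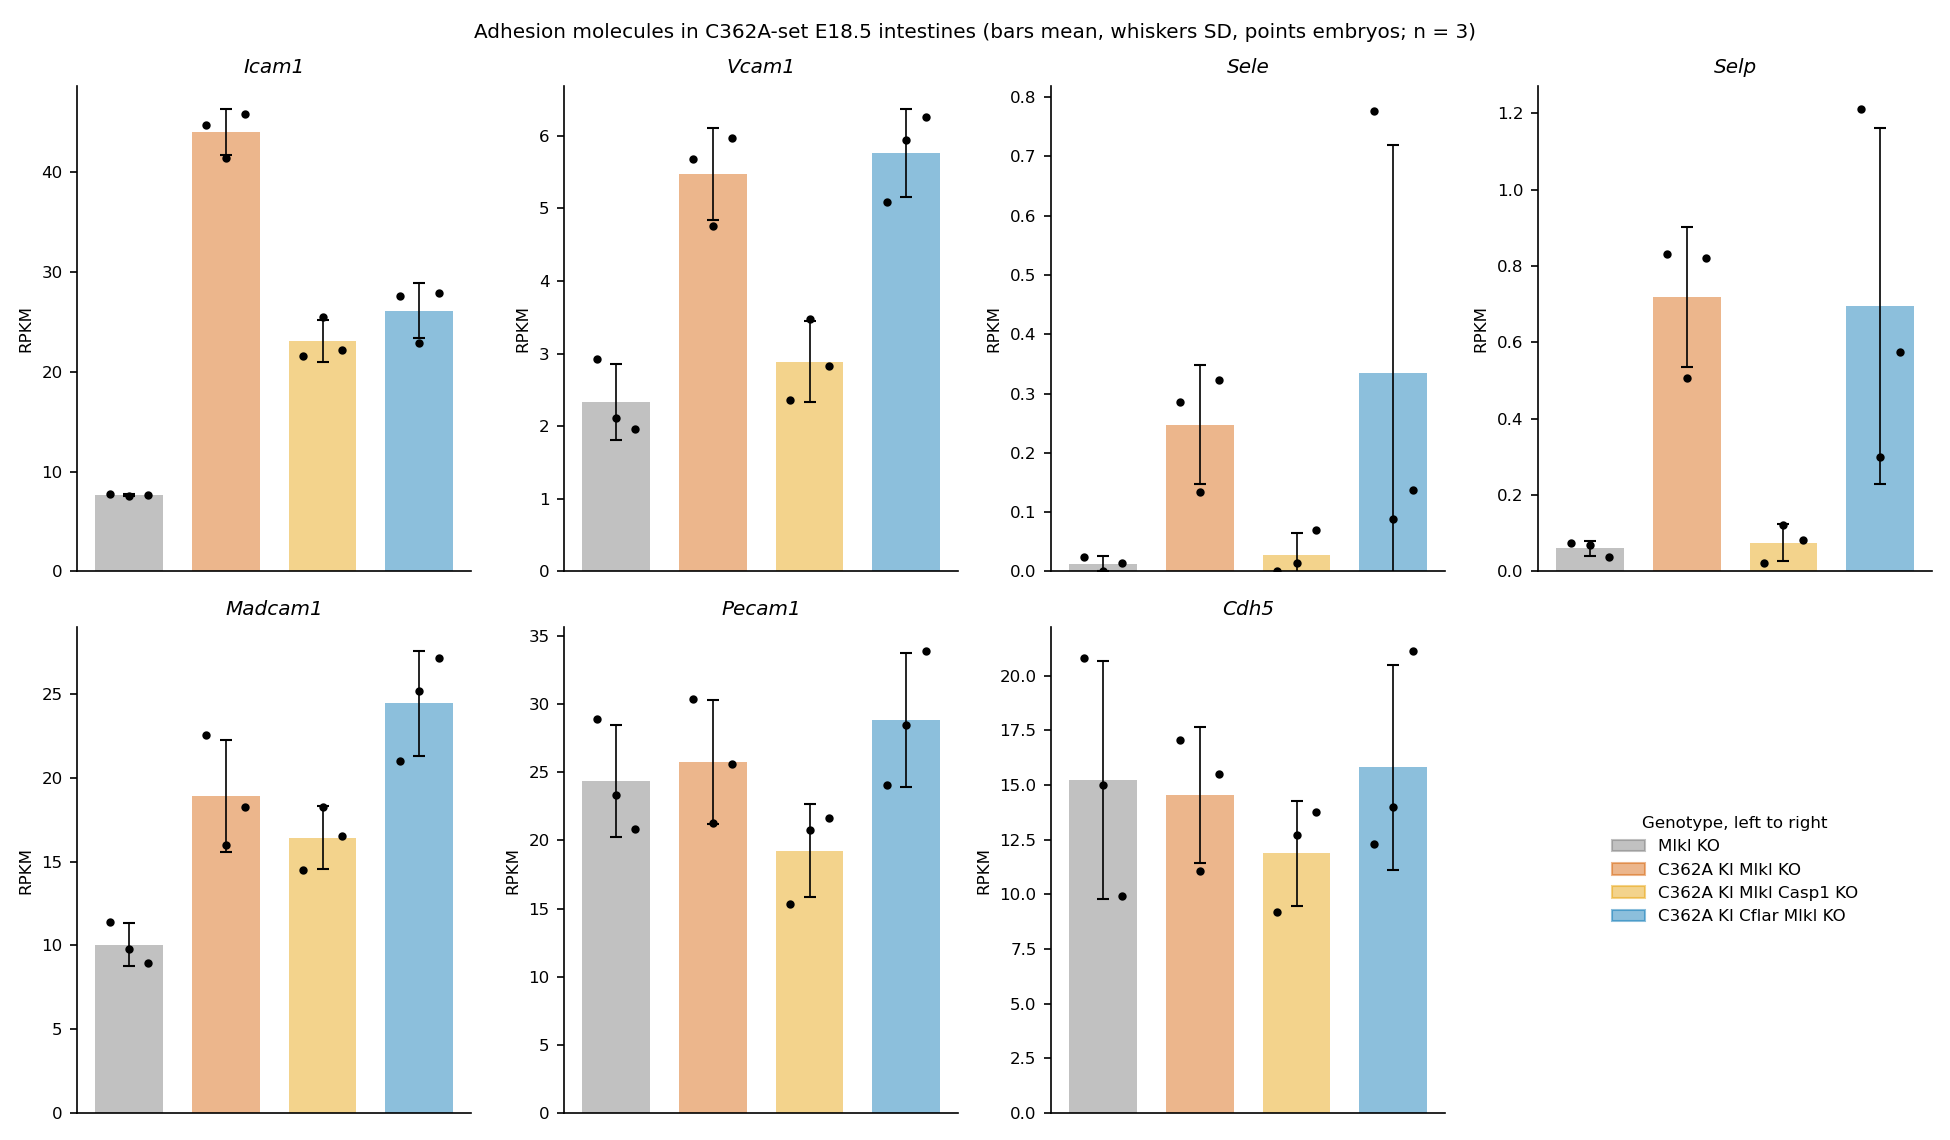
Levels in RPKM (y axes) of the 7 genes in the 4 genotypes of the C362A set, with bars for the mean of 3 embryos, whiskers for the SD (cut at 0) and points for embryos. Icam1, Vcam1, Sele and Selp lie above controls in C362A KI Mlkl KO and C362A KI Cflar Mlkl KO, and the selectins lie at 0.12 RPKM or less in every embryo of C362A KI Mlkl Casp1 KO.

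Differences between the 2 backgrounds were tested in a joint fit of all 30 intestines. Calls in joint fits, here and below, required only an adjusted p under 0.05. The effect of the Cflar-deficient Mlkl-deficient genotype against its controls was called different between D387A and C362A for 0 of 7 members by edgeR, DESeq2 and limma-voom, and for 0.127% of 19643 genes. Icam1 came closest, with a difference of 0.72 ± 0.263 (unadjusted p under 0.05 for this 1 member, adjusted p = 0.131). The other differences ran from -0.24 for Sele to 0.33 for Cdh5, with Selp at 0.07, Vcam1 at 0.18, Madcam1 at 0.22 and Pecam1 at 0.23. The effect of Casp1 loss differed for 1 of 7, against 16.9% of all genes. With Casp1 loss Madcam1 was at 0.41 in the D387A background and at -0.20 in C362A, a difference of 0.63 ± 0.164 (adjusted p = 0.0102). For Icam1 the difference was 0.63 ± 0.254 (adjusted p = 0.0831) and was not called. It was 0.13 (adjusted p = 0.5) without replicate 3 of D387A KI Cflar Mlkl Casp1 KO, and it passed at 0.83 (adjusted p = 0.0255) without replicate 1 and at 0.84 (adjusted p = 0.0232) without replicate 2 of that group. Differences of the other members were not called, with Vcam1 at -0.04, Sele at 0.60, Selp at -0.66, Pecam1 at 0.28 and Cdh5 at 0.43. Without replicate 3 Sele was at -0.39 and Selp at -1.27 (adjusted p = 0.89 and 0.298). The Casp1 comparison sets a Cflar-deficient D387A background beside a C362A background with Cflar, so the part of Cflar and that of the Casp8 allele cannot be told apart.

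MEFs carried the same D387A KI Cflar Mlkl KO genotype without a call at these genes. Icam1 was at 17.95, 18.33 and 16.82 RPKM against 15.45, 12.7 and 12.4 in Mlkl KO MEFs, higher in each but by 0.39 ± 0.0929 (adjusted p = 0.376, edgeR). Vcam1 was at 38.08, 48.45 and 51.69 RPKM against 31.78, 42.58 and 42.0. The Vcam1 groups overlapped, although each mutant was above the control of its own number, and the difference was 0.25 ± 0.14 (adjusted p = 0.817, and 0.107 with the replicate number as a block). Sele had 30, 21 and 65 reads against 24, 13 and 15, a log2 difference of 1.31 ± 0.395 (adjusted p = 0.619), and Selp 75, 28 and 32 against 115, 20 and 25 (0.08). Pecam1 was at -0.29 and Cdh5 at -0.17. Of 6 members tested 0 were called by edgeR, DESeq2 and limma-voom and 2, Icam1 and Sele, had an unadjusted p under 0.05, while 0.0711% of all genes were called, or 0.123% with the replicate number as a block. Madcam1 had 0 reads in controls and 3, 11 and 4 reads in mutants, at least 6.98-fold higher than the limit of 3 reads over the control group, and was too low to be tested. The 22 endothelial markers summed to 64.2 to 73.3 RPKM in the 6 MEF libraries, with Cldn5 at 0 in all controls and Sox17 at 0 in all mutants, and 0 of the 13 tested were called. Of 13 NF-kB genes 3 rose in MEFs, Nfkbie the most by 1.56 ± 0.175.

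For 4 members the change in intestine exceeded that in MEFs in a joint fit of the D387A set and the MEFs. The difference of the log2 changes was 2.13 ± 0.291 for Icam1 (adjusted p = 5.75e-06, edgeR), 1.27 ± 0.199 for Vcam1 (adjusted p = 2.93e-05), 3.47 ± 0.767 for Selp (adjusted p = 0.00103) and 2.94 ± 0.932 for Sele (adjusted p = 0.0159). These 4 members were called where 38.4% of 18862 genes were. Madcam1 entered this fit only through its level in intestine and had no read in MEF controls, so its fitted value of -4.15, which ran from -4.53 to -2.14 over the alternatives, depends on the prior count and is not read as a difference. The Sele call was lost without D387A-set control replicate 1 or 2 (adjusted p = 0.0628 and 0.0583). Pecam1 at 0.82 (adjusted p = 0.0722) and Cdh5 at 0.60 (adjusted p = 0.145) did not pass, although Pecam1 was at 1.64 (adjusted p = 0.000474) without replicate 1 of the mutant MEFs.

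**Figure D5:**
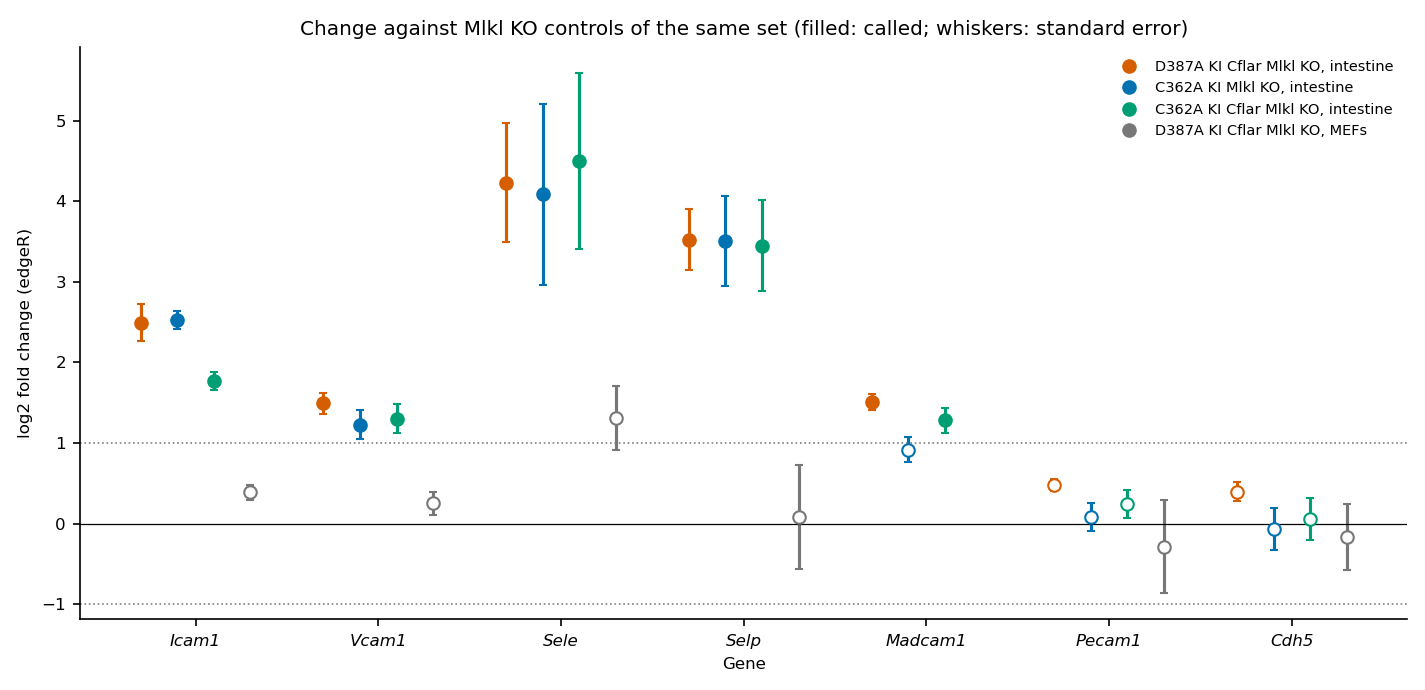
Fitted log2 fold change (y axis) of each of the 7 genes (x axis) against the Mlkl KO controls of the same set, in 3 intestine genotypes and in MEFs, with whiskers for the standard error, filled points for called changes and dotted lines at 1 and -1. Icam1, Vcam1, Sele and Selp are filled in all 3 intestine genotypes and open in MEFs, while Pecam1 and Cdh5 are open throughout and Madcam1 was not tested in MEFs.

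Set against the junction genes of the same embryo, the other 5 molecules were still higher. Each member was divided by the geometric mean of Pecam1 and Cdh5 after adding 0.05 RPKM. In RNA of whole intestine this is no level per vessel cell, since ICAM-1 and VCAM-1 are also made outside vessels. In D387A KI Cflar Mlkl KO this log2 ratio exceeded that of controls by 2.05 for Icam1, 1.03 for Vcam1, 2.22 for Sele, 2.48 for Selp and 1.07 for Madcam1. In C362A KI Mlkl KO the differences were 2.49, 1.20, 2.16, 2.75 and 0.88 in the same order. In each of these 10 comparisons the 3 mutants lay above the 3 controls. The two-sided exact permutation p was 0.1, which is the smallest that 3 against 3 can give. The share of all genes separated in this way was not computed, so nothing is read from that count. By fold change 4078 of 18360 genes were called in the D387A comparison and 3487 of 19408 in the C362A one. Pecam1 moved by 0.48 and 0.08 and Cdh5 by 0.40 and -0.07, so the ratios largely restate the fold changes above. The 10 include Sele and Selp, which were near the limit of detection in controls. The value added to each level sets the size for the selectins: with 0.5 RPKM in place of 0.05 the differences were 0.30 for Sele and 0.96 for Selp in D387A KI Cflar Mlkl KO and 0.51 and 1.08 in C362A KI Mlkl KO.

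Correlations of log2 CPM describe how the 7 genes varied together, over 18 D387A-set and 12 C362A-set intestines that share genotypes and libraries. Pecam1 and Cdh5 went together (r = 0.856 and 0.881), as did Sele and Selp (0.845 and 0.937). Icam1 had r = 0.878 and 0.790 with Madcam1, 0.824 and 0.792 with Vcam1 and 0.610 and 0.741 with Selp. Vcam1 in turn had 0.855 and 0.814 with Sele and 0.855 and 0.913 with Selp. Of all genes tested, those most like Icam1 in the D387A set were Nos2, Saa3 and Nfkbia (r = 0.990, 0.990 and 0.989), which encode the inducible nitric oxide synthase, a serum amyloid A and the NF-kB inhibitor, with 0.940, 0.932 and 0.913 in the C362A set. Those most like Selp were C1s1, Serpina3n and Igfbp7 (0.970, 0.966 and 0.958), the first encoding a complement protease, with 0.920, 0.911 and 0.936 in the C362A set. Sele was most like Limk1, Slc1a4 and Ccn4 (0.960, 0.936 and 0.934), with 0.724, 0.810 and 0.871 in the C362A set.

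Vcam1 was most like Gm7390, Parp3 and Eif4a-ps4 (0.972, 0.967 and 0.967), with 0.848, 0.869 and 0.854 in the C362A set. Madcam1 was most like Nrros, Spic and Bcl6b (0.963, 0.937 and 0.932), with 0.823, 0.706 and 0.760. Pecam1 was most like Cd93, another endothelial surface molecule, with r = 0.971 in the D387A set and 0.964 in the C362A set, followed by Gimap4 and Sept11 (0.951 and 0.940, against 0.648 and 0.912 in the C362A set). For Cdh5 the nearest genes were Prex1, Rasgrp3 and Lrrc55 (0.930, 0.919 and 0.915), with 0.569, 0.875 and 0.575 in the C362A set. Likeness over so few genotypes is a description and shows no shared control.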

How the data were processed

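RNA-seq of 30 E18.5 intestines and 6 MEF cultures was analysed, 3 libraries for each of 12 groups taken from the labels. Alignment by the authors, per their methods, used GSNAP against GRCm38 and retained reads with a single location. For each gene they deposited an exonic read count, not normalized, and an RPKM value. The counting program and strand setting are not given in the sources used here. The sample labels and the paper name different library kits and instruments, so reads of overlapping opposite-strand genes may not be separated. Between 17943524 and 32307629 reads fell on genes, and the deposited RPKM use a larger library total, so levels here are RPKM recomputed from counts, exon width and TMM-scaled totals.

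Tests on the counts used edgeR 4.0.16 (R version 4.3.3) with filterByExpr (minimum count 10, minimum total 15), TMM scaling, the quasi-likelihood test, Benjamini-Hochberg adjustment over all genes and a prior count of 0.125. All groups of a set were fitted together, each set being normalized separately, and differences between sets were interaction contrasts in joint fits. Called means a log2 fold change beyond 1 and an adjusted p under 0.05, the thresholds of the study, and for interactions an adjusted p under 0.05. Single ratios had a two-sided exact permutation test. The 7 members and the gene lists were chosen with earlier results of these data known. The rule named all 7 members in each comparison, and for each list the gene most abundant in controls and those with the largest and smallest change. Other list genes were named for pairing with a member or because they were among few calls, after their values were seen. Likeness is Pearson's r of log2 CPM with a prior count of 2. Some genes that the rule names are not reported here. The list of lymphoid markers includes the B-cell gene Cd79a.

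Replicate numbers were checked as pairs: same-numbered MEF libraries deviated together from their group means (r = 0.181 to 0.310 in 3 pairs), and intestines did not. Whether embryos of 1 genotype came from separate litters is not stated, so p-values measure the spread between these samples. The paper calls Mlkl KO controls littermates of D387A KI Cflar Mlkl KO, C362A KI Mlkl KO and C362A KI Cflar Mlkl KO embryos. The sample titles give no litter, so shared litters could not be modelled, and the replicate numbers need not follow them. Alternatives were DESeq2 1.42.0, limma-voom (limma 3.58.1), RLE scaling, no low-count filter, a mean count of at least 50, a prior count of 2, only the groups compared, the replicate block, pooled controls and each library left out. The gene lists were also tested without D387A KI Cflar Mlkl Casp1 KO replicate 3, an alternative added after the values were seen. Motifs and figures used Python 3.11.15, scipy 1.17.1 and matplotlib 3.10.9.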

Additional observations from a re-analysis of the deposited data

Results flagged for a closer look

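In 6 results the effect of a genotype passed a test of the difference between groups itself (interaction contrasts in edgeR, Benjamini-Hochberg over all genes). Casp1 loss changed Madcam1 differently in the D387A KI Cflar Mlkl KO and C362A KI Mlkl KO backgrounds, by 0.63 on the log2 scale (adjusted p = 0.0102). That was 1 of 7 members, against 16.9% of all genes, so its share was no higher than that of genes in general. The effect of D387A KI Cflar Mlkl KO against controls was larger in intestine than in MEFs for Icam1 by 2.13, for Vcam1 by 1.27, for Sele by 2.94 and for Selp by 3.47. In that contrast 38.4% of all genes were called. The Sele value ran from 2.39 to 6.27 over the alternatives. Its call was lost without D387A-set control replicate 1 or 2 (adjusted p = 0.0628 and 0.0583). For Madcam1 the fitted value was -4.15, which depends on the prior count and is not read as a difference, since the gene passed the low-count filter only through intestine, with 0 reads in the 3 MEF controls and 3, 11 and 4 reads in the mutant MEFs.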

How the results depend on the processing

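Of 1728 gene values under the alternatives, 1698 kept their side of the threshold, 14 lost a call and 16 gained one, and 60 changed sign, none of them called. A mean count of at least 50 removed Sele and Selp by construction. Against controls it lowered the calls to 3 in D387A KI Cflar Mlkl KO, where 2771 of 14078 genes were called over all genes. It left 3 in C362A KI Cflar Mlkl KO (3357 of 14777 genes) and 2 in C362A KI Mlkl KO (2422 of 14777). Casp1 loss gave 0 calls in D387A (1581 of 14078 genes) and in C362A (1483 of 14777), and Ifnar1 loss gave 0 (573 of 14078). Fadd loss gave 1 call with limma-voom (674 of 18360 genes) and with only the groups compared (322 of 17442). Ifnar1 loss gave 0 with only the groups compared (411 of 17426). D387A KI Cflar Mlkl Casp1 Fadd KO gave 0 calls against pooled controls (953 of 19643 genes). Without the low-count filter the Casp1 interaction had 2 calls (2743 of 35326 genes), Icam1 joining at 0.67 (adjusted p = 0.0436). The cause was not tested for these. With the 22 general endothelial markers as denominator the D387A log2 ratios were 2.23 for Icam1, 1.21 for Vcam1 and 1.24 for Madcam1. Adding 0.5 RPKM gave 0.30 for Sele and 0.96 for Selp in D387A and 0.51 and 1.08 in C362A.

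Leaving out 1 library gave 0 to 2 calls for Ifnar1 loss, 1 to 2 for Fadd loss, 1 to 3 for Casp1 loss in C362A, 2 to 3 for it in D387A, 1 to 2 for the Casp1 interaction and 4 to 6 for the intestine and MEF interaction, Madcam1 included. It gave 4 to 5 in C362A KI Mlkl KO and 2 to 3 in D387A KI Cflar Mlkl Casp1 Ifnar1 KO against controls, where Selp became called (1.19) without replicate 1 of the latter, as it did with pooled controls (1.38) and with only the groups compared (1.08). Against controls the count stayed at 5 for D387A KI Cflar Mlkl KO and C362A KI Cflar Mlkl KO, at 2 for D387A KI Cflar Mlkl Casp1 KO and at 1 for D387A KI Cflar Mlkl Casp1 Fadd KO and C362A KI Mlkl Casp1 KO, and at 0 for each comparison with no call. For Ifnar1 loss the fits with 0 members called had 629 of 18675, 582 of 18685 and 768 of 18650 genes called. The fit with 2 members had 1740 of 18690. For Fadd loss the fit with 1 member had 907 of 18690 genes called. For Casp1 loss in C362A the fits with 1 member had 2174 of 19874, 2010 of 19866 and 2085 of 19857. The replicate block changed no member's call. It moved the count over all genes in MEFs from 11 to 19, and same-numbered intestines showed no pairing (median r of -0.0081 and -0.0574). Selectin counts below about 10 reads per library set the precision of every statement on Sele and on Selp in controls.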
